A study of Mus musculus with 12 samples.

Results

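The regions described here are stretches of open chromatin that appear in the peak list of ganglia from MS275-treated mice and have no counterpart in the list from vehicle-treated mice. They were chosen by merging overlapping entries within each list and keeping merged MS275 regions that were on an autosome, spanned at least 600 bp and shared not 1 bp with a Vehicle region. This left 6944 regions, which were 17.1% of the 40593 wide autosomal regions of the MS275 list and part of the 161788 merged regions of that list. Width and overlap made the choice, and fold enrichment comes from the same lists, so these are described without a test. The RNA of nearby genes was measured in other mice and was not used in the choice.

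The study measured chromatin and RNA in the dorsal root ganglia at lumbar levels 4 to 6 of C57BL/6 mice aged 6 to 8 weeks. All mice, vehicle-treated ones included, had their spinal dorsal columns cut (dorsal column axotomy) 24 h earlier, so no uninjured tissue enters. One group received MS275 at 12 mg/kg into the peritoneum, at injury and again 2 h before tissue collection, and the other received vehicle (Tween80, PEG300 and DMSO) on the same schedule. Each group had 3 ATAC-seq samples of 1 mouse each and 3 RNA-seq samples, each a pool of 2 mice, and the ATAC replicates were deposited as 1 combined peak list per treatment.

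MS275, also called entinostat, inhibits class I histone deacetylases, enzymes that remove acetyl groups from histone tails. Acetylated histones hold DNA less tightly and are typical of active promoters and enhancers. ATAC-seq cuts DNA with a transposase wherever nucleosomes leave it open, and a peak is a stretch with more cuts than its surroundings. Promoters shared by many cell types usually give strong wide peaks, while enhancers inside or between genes tend to give weaker peaks that differ between cell types. Dorsal root ganglia contain sensory neurons, satellite glia that wrap the neurons, Schwann cells, vessels and immune cells, and the libraries came from whole tissue. In such tissue, fewer cells of a type and less RNA per cell cannot be told apart.

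Promoters touched by an MS275-only wide region can be read directly. The promoters of Cep295 and Mmaa, each on the minus strand, are shown because their regions had the highest fold enrichment; they were picked after the values were seen. Those of Stab1, Hrct1, Depp1, Slc1a3 and Ckmt2 are shown because a region touched the promoter and their RNA passed the test given further on. Each runs 5′ to 3′ on the strand of the gene, from 250 bases before to 50 after the transcription start, from RefSeq on GRCm38.p6, the assembly of mm10. Capitals mark motif matches, searched on either strand. The GC box was searched as GGGCGG, the cyclic AMP response element (CRE) as TGACGTCA and the AP-1 site as TGANTCA. The ETS core was searched as CCGGAA, the TATA element as TATAAA, and the CCAAT box by the letters of its name. Capitals run together where matches overlap or touch, as an ETS core and a GC box do in Cep295.
Cep295: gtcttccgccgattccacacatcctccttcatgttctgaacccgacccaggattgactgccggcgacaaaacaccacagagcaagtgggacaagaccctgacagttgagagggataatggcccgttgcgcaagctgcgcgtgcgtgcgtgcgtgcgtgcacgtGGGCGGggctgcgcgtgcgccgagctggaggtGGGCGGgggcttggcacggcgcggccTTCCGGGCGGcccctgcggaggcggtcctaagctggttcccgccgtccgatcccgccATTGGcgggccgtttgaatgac
Mmaa: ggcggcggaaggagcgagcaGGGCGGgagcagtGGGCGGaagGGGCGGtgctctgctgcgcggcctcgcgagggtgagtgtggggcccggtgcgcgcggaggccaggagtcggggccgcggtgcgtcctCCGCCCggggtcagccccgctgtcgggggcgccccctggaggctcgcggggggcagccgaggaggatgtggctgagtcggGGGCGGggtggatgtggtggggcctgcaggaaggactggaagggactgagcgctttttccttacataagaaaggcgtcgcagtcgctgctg
Stab1: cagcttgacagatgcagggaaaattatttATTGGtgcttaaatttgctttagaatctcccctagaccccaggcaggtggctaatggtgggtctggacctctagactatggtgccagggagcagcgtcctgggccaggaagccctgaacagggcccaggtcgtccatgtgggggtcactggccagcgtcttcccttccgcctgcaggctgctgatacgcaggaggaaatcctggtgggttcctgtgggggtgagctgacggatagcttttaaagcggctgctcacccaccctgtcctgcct
Hrct1: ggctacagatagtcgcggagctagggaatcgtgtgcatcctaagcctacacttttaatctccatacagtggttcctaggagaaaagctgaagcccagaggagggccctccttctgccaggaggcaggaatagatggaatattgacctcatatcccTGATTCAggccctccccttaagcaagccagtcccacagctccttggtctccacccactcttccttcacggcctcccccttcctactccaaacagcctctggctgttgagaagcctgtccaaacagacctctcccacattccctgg
Depp1: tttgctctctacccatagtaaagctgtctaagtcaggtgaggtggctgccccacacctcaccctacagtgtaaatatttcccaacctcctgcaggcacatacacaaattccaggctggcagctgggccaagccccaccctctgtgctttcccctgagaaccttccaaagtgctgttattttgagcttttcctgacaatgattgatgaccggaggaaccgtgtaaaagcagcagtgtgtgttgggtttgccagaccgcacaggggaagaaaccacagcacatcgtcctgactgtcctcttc
Slc1a3: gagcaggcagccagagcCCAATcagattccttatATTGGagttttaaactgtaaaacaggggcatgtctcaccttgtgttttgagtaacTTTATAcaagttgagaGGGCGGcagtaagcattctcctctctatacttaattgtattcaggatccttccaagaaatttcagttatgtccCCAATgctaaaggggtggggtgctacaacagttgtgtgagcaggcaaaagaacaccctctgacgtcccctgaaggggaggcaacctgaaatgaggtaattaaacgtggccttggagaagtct
Ckmt2: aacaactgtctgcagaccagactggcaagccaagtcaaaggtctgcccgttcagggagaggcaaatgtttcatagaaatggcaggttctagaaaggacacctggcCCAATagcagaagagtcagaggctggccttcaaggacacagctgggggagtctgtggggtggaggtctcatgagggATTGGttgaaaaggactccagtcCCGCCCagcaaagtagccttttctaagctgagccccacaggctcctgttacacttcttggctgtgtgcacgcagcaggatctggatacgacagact

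The Cep295 promoter (chr9:15357739-15358038) held 3 GC boxes, 1 ETS core, 1 CCAAT box and 33 CpG dinucleotides, at 66.7% G and C. That of Mmaa (chr8:79294687-79294986) held 5 GC boxes and 32 CpG dinucleotides, at 73.3% G and C. The other promoters were poorer in CpG, with 7 in Stab1 (chr14:31168592-31168891), 4 in Hrct1 (chr4:43726948-43727247), 4 in Depp1 (chr6:116650434-116650733), 3 in Slc1a3 (chr15:8710758-8711057) and 4 in Ckmt2 (chr13:91876836-91877135). Stab1 had 1 CCAAT box, Hrct1 had 1 AP-1 site, Slc1a3 had 1 GC box, 3 CCAAT boxes and 1 TATA element, and Ckmt2 had 1 GC box and 2 CCAAT boxes, while Depp1 had 0 matches to these motifs. Over all 31396 autosomal promoters of this length, 36.0% held a GC box, 1.83% a CRE, 7.84% an AP-1 site, 15.1% an ETS core, 37.3% a CCAAT box and 13.6% a TATA element. Letters that match a motif do not show that a factor binds there.

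The promoters touched by MS275-only wide regions numbered 196, in 179 genes, and resembled those touched by Vehicle-only wide regions more than those touched by shared ones. Their median CpG count was 5, against 6 for the 352 promoters touched by Vehicle-only wide regions, 23 for the 12680 promoters touched by wide MS275 regions that overlap a Vehicle region, and 7 over all promoters. A GC box was present in 30.1% of them, against 23.9% for Vehicle-only and 68.2% for shared regions. The ETS core, common in promoters of housekeeping genes, was present in 7.65% of them, against 10.2% and 27.4%. TATA elements were present in 12.8%, against 14.5% and 5.21%. With 1 list per treatment these shares have no replicate error and are given without a test.

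MS275-only wide regions touched 10 miRNA hairpins, in 9 regions. The mature arms shown belong to hairpins with a known place in development or the nervous system, with the seed (bases 2 to 8, which pair with targets) in capitals, from RefSeq on GRCm38.p6; they were picked by that knowledge and not by a measured change.
mmu-miR-218-5p: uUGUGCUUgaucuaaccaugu
mmu-miR-323-3p: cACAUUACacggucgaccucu
mmu-miR-758-3p: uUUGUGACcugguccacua
mmu-miR-199a-5p: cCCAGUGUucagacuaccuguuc
mmu-miR-199a-3p: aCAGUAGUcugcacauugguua

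None of these 5 arms shares a seed with another. Mir218-2 lies in Slit3, a gene for a secreted axon guidance protein, and its region (chr11:35616314-35617059) had a fold enrichment of 1.82. Mir323 and Mir758 lie together in the imprinted miRNA cluster of chromosome 12, both inside chr12:109712451-109713117, with a fold of 1.81. Mir199a-1 lies within Dnm2, which encodes the endocytic GTPase dynamin 2, but on the opposite strand, in chr9:21496171-21496847, with a fold of 1.41. Mature miRNAs are not captured by these poly(A)-selected libraries. The host transcript of Mir218-2 was measured: Slit3 had 5.06, 5.39 and 5.10 CPM (counts scaled to the normalised library size) with MS275, against 4.42, 4.65 and 5.15 CPM in vehicle. It did not pass edgeR's quasi-likelihood test after Benjamini-Hochberg adjustment (adjusted p = 0.452), and the MS275 and vehicle libraries overlapped.

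As a class the MS275-only wide regions were weak peaks. Their fold enrichment over local background, the authors' value for the strongest entry in each region, had a median of 1.71, and its 5th and 95th percentiles were 1.47 and 2.09. Vehicle-only wide regions, of which there were 12165, had a median of 1.66, and the 33649 shared wide regions a median of 2.13, with a 95th percentile of 6.46. Only 365 of the 6944 (5.26%) reached a −log10 q of 5, against 12.1% of Vehicle-only and 54.2% of shared wide regions. Width ran up to 1680 bp with a median of 701 bp, and 1831 regions (26.4%) were a single entry while 3408 (49.1%) joined 2 entries. At the limit of the width rule, 235 regions of 600 to 604 bp had a median fold of 1.70, and 280 otherwise eligible regions of 595 to 599 bp had 1.68.

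**Figure D1:**
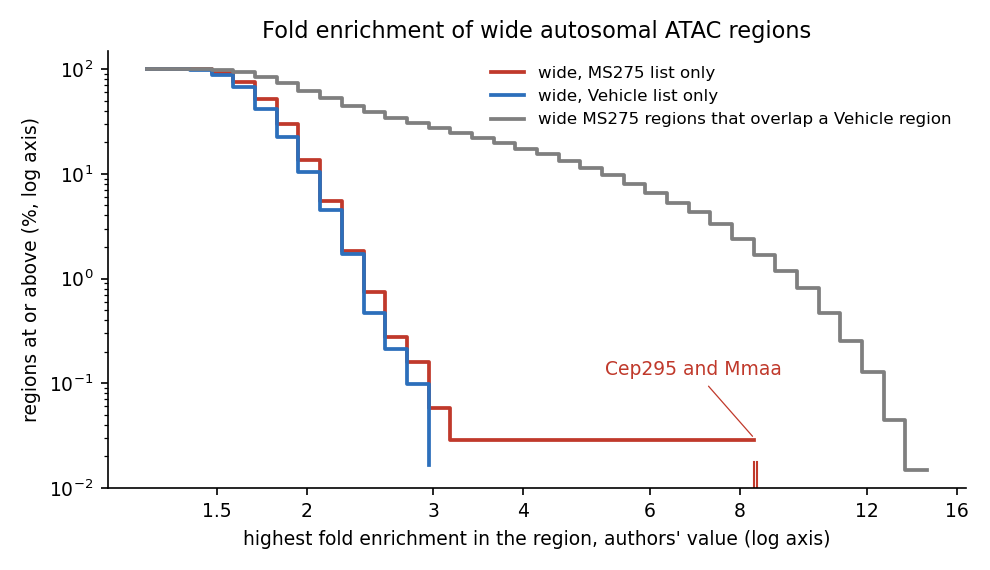
Share of wide autosomal regions (%, log axis) at or above each fold enrichment (log axis, the authors' value) for regions in the MS275 list only, in the Vehicle list only, and in both. The MS275-only curve stays close to the Vehicle-only curve up to about 3 and ends in 2 regions, at Cep295 and Mmaa, with folds of 8.45 and 8.37.

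Absence from the Vehicle list is not a measured difference in openness. A region can be called in 1 list and fall short in the other, and no value of the Vehicle ATAC samples inside these regions was analysed here. The Vehicle list was also the longer one, with 277369 entries against 246602 in the MS275 list. Before the width rule, 47.3% of merged autosomal MS275 regions overlapped no Vehicle region, and 52.6% of Vehicle regions overlapped no MS275 region. Among wide regions the shares were 17.1% for MS275 and 24.6% for Vehicle. The nearest Vehicle region was a median of 2066 bp away, within 100 bp for 232 regions (3.34%), within 1000 bp for 2224 (32.0%) and more than 50000 bp away for 184 (2.65%).

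Only 2 regions stood far from the rest, and both covered a promoter. The region over the start of Cep295, which encodes a centriole protein, spans chr9:15357176-15358369 (1194 bp) with a fold of 8.45 and a −log10 q of 150.74, and the nearest Vehicle region lay 5752 bp away. The region over the start of Mmaa, which encodes a mitochondrial protein of vitamin B12 metabolism, spans chr8:79294429-79295560 (1132 bp) with a fold of 8.37 and a −log10 q of 174.44, 6776 bp from the nearest Vehicle region. The next in rank was a region inside Tmem178b at chr6:40052625-40053442, with a fold of 3.09. After it came the promoter of the zinc finger gene Zfp661 at chr2:127584063-127585036, with 3.04. No Vehicle-only wide region exceeded a fold of 3.09, whereas 3477 shared wide regions (10.3%) had a fold over 5. Folds near 8 are therefore in the range of shared regions, and these are the values of 1 combined list with no replicate behind them.

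RNA of 6 genes at the 10 strongest regions was tested: 0 passed in edgeR, 2 had a p under 0.05 before adjustment, and neither DESeq2 nor limma voom gave a call (0 each). Over all 16819 genes tested, 5.10% were called higher and 5.89% lower in edgeR, and 28.4% had a p under 0.05 before adjustment, so these counts are near the background for 6 genes. Cep295, listed in the count files under the older name 5830418K08Rik, had 10.8, 13.1 and 12.5 CPM with MS275, against 15.0, 13.6 and 13.4 CPM in vehicle, a log2 fold change of -0.21 (SE 0.09, adjusted p = 0.164 in edgeR's quasi-likelihood test). Every MS275 library lay below every vehicle library. Mmaa had 12.8, 12.9 and 10.9 CPM with MS275, against 11.4, 12.3 and 12.9 CPM in vehicle, with overlapping groups (log2 fold change -0.001, SE 0.088, adjusted p = 0.997). The differences for Tmem178b and Zfp661 were -0.15 and -0.06 on the log2 scale (edgeR adjusted p = 0.166 and 0.74). The other genes tested among the 10 strongest regions were Slco1c1, a transporter of thyroid hormone and organic anions (-0.39, edgeR adjusted p = 0.252), and Man2a1, a Golgi mannosidase (-0.25, edgeR adjusted p = 0.32).

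The 10 widest regions had folds from 1.61 to 2.13, beside the median of 1.71 over the class. The widest, 1680 bp at chr10:107976187-107977866, lies in the lncRNA gene Gm29685 with a fold of 1.85. Of the 10 widest, 1 covered a protein-coding start, that of Pcolce, which encodes an enhancer of procollagen processing (chr5:137610252-137611848, 1597 bp, fold 1.82). Pcolce RNA was 25.7, 22.9 and 23.3 CPM with MS275, against 23.1, 25.6 and 27.1 CPM in vehicle, so the groups overlapped (edgeR adjusted p = 0.564). Of the 6 tested genes nearest the 10 widest regions 0 passed in edgeR, 0 had a p under 0.05 before adjustment, and 0 passed in DESeq2 or limma voom. With 6 genes and 11.0% called in either direction over all genes, nothing can be read from this count.

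Most MS275-only wide regions lay inside genes and far from a transcription start. Of the 6705 regions on autosomes with start coordinates (all but chromosome 18), 341 (5.09%) lay within 1000 bp of a start and 143 (2.13%) contained one. Of those 143, 88 contained the start of a protein-coding gene and 55 that of a lncRNA. A further 4312 (64.3%) lay inside a gene with its start farther away. Outside genes, 880 (13.1%) were within 10000 bp of one, 758 (11.3%) between 10000 and 50000 bp and 414 (6.17%) farther still. The tables used here do not divide genes into exons and introns.

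**Figure D2:**
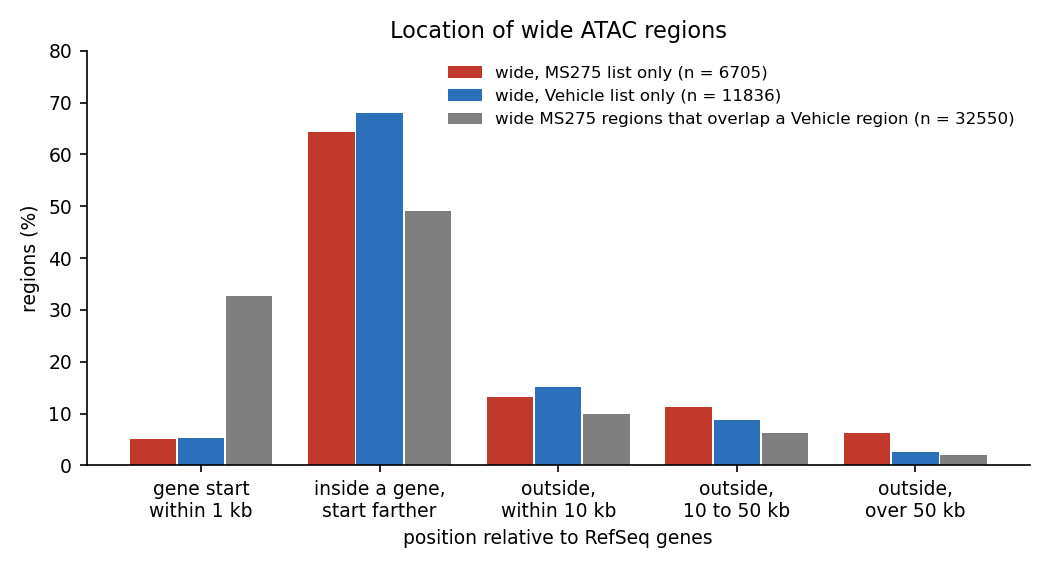
Share of wide regions (%) by position relative to RefSeq genes, for regions in the MS275 list only, in the Vehicle list only, and MS275 regions that overlap a Vehicle region. Starts within 1 kb account for 5.09% of MS275-only, 5.31% of Vehicle-only and 32.6% of shared regions, and distances over 50 kb for 6.17%, 2.65% and 2.04%.

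Near genes the location resembled that of Vehicle-only wide regions, and far from genes it differed from it. Vehicle-only wide regions lay within 1000 bp of a start in 5.31% of cases and inside a gene with a farther start in 68.0%. Their share beyond 50000 bp from any gene was 2.65%, below the 6.17% of MS275-only regions. MS275-only regions under 600 bp lay that far out in 8.24% of cases, so the distal share was not particular to wide ones. Shared wide regions were different near starts, with 32.6% within 1000 bp and 28.9% containing a start. The median distance to the nearest start was 28034 bp for MS275-only, 21628 bp for Vehicle-only and 10790 bp for shared wide regions. For MS275-only regions under 600 bp it was 33740 bp. The chromosomes contributed similarly: MS275-only regions were 13.4% of wide MS275 regions on chromosome 11, the lowest share, and 19.6% on chromosome 14, the highest. The regions were scattered, with a median of 70176 bp to the nearest other one, and 766 (11.0%) within 10000 bp of another.

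RNA was then compared between MS275 and vehicle for the genes nearest to these regions. A region was given the gene it overlaps, or else the gene with the closest end. The 380 regions that overlap 2 or more genes were given the one whose end is closest. A region inside a long gene can thus count for a smaller gene within it, as the Mir218-2 region in Slit3 does. The 6944 regions pointed to 5187 gene symbols, 3272 of them protein-coding; 3742 had a row in the count files and 2939 passed the filter on low counts. RNA libraries held 34992533 to 56542966 assigned reads with MS275 and 39148369 to 60370523 in vehicle. Summed CPM of 10 sensory neuron markers was 11890 to 13270 with MS275 and 11700 to 12300 in vehicle, so the tissue carried its defining neuronal transcripts. The libraries of 1 group were called biological replicates by the submitters, and p-values measure the spread between them. MS275 libraries differed more from each other than vehicle libraries did. Chi-square per degree of freedom was 54, 18.4 and 21.4 for pairs of MS275 libraries, against 7.24, 7.66 and 8.8 for vehicle pairs. The fit took 1 spread per gene for both groups.

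Nearest genes changed about as often as genes in general. Of the 2939, 170 rose with MS275 (5.78%) and 147 fell (5.0%), in edgeR's quasi-likelihood test with Benjamini-Hochberg adjusted p under 0.05. Over all genes tested, the shares were the 5.10% and 5.89% given above. The median log2 fold change was 0.0 for nearest genes and 0.002 over all genes. Genes nearest to Vehicle-only wide regions rose in 5.0% and fell in 6.04% of 4716 cases, and those nearest to shared wide regions rose in 5.4% and fell in 6.89% of 11897. Many genes belong to several of these sets: 1672 of the 2939 were also nearest to a Vehicle-only wide region. The 1267 that were not had 85 that rose (6.71%) and 63 that fell (4.97%).

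The counts of called genes depended on which libraries were fitted. For nearest genes they were 208 higher and 148 lower without MS275 replicate 1, 226 and 267 without MS275 replicate 2, and 89 and 57 without MS275 replicate 3. They were 46 and 21 without vehicle replicate 1, 25 and 16 without vehicle replicate 2, and 67 and 51 without vehicle replicate 3. The median of nearest genes stayed between -0.002 and 0.01 in these fits.

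**Figure D3:**
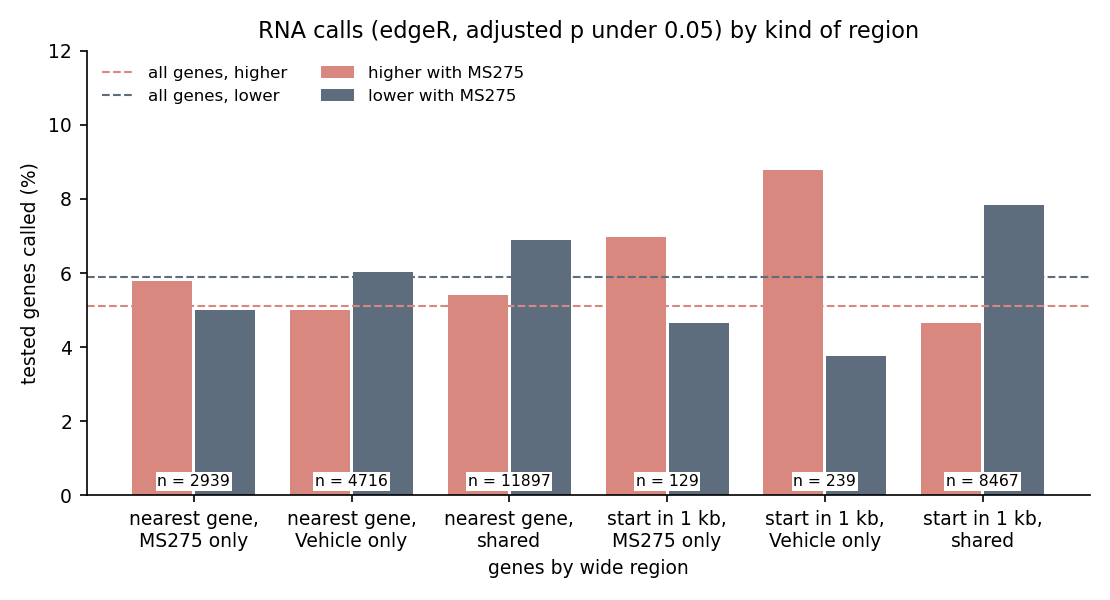
Share of tested genes (%) called higher or lower with MS275 in edgeR (adjusted p under 0.05), by kind of wide region and by whether the gene was nearest or had a start within 1 kb; dashed lines give all 16819 genes. Nearest genes of MS275-only regions sat at 5.78% higher and 5.0% lower, beside 5.10% and 5.89% over all genes.

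Genes with a start close to an MS275-only wide region were fewer and less expressed. Of 224 such genes with a row in the count files, 129 could be tested. Their median level was 2.38 on the log2 CPM scale, against 4.05 over all genes. It was 3.23 for genes with a start close to a Vehicle-only wide region and 4.8 for those close to a shared one. For MS275-only regions under 600 bp it was 3.64. Of the 129, 9 rose (6.98%) and 6 fell (4.65%), and their median log2 fold change was 0.10. The same counts for Vehicle-only wide regions were 21 and 9 of 239 genes (8.79% and 3.77%, median 0.08). Shared wide regions had 394 and 665 of 8467 (4.65% and 7.85%, median -0.01). At 67 of the 129 genes a start also lay within 1000 bp of an MS275 region that overlaps the Vehicle list. Of the 15 called genes, 9 were among these: Ehbp1l1, Kcnk5, Cisd3 and Cd34 rose, and Fabp7, Zbtb39, Ncapd3, Sox6 and Thsd7a fell. Without single libraries the 9 and 6 calls became between 1 and 12 higher and between 3 and 10 lower, with the fewest higher calls without vehicle replicate 2.

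The 9 genes that rose are given first. Slc1a3 encodes GLAST, a glutamate transporter of glia. It had 14.9, 15.6 and 15.5 CPM with MS275, against 13.5, 13.01 and 11.9 CPM in vehicle (log2 fold change 0.26, SE 0.07, edgeR adjusted p = 0.047). All MS275 libraries were above all vehicle libraries. Its region, chr15:8710129-8710943 with a fold of 2.20, covered the start and part of the promoter printed above and lay 46040 bp from any Vehicle region, but the call was lost in 7 of 11 alternative fits, among them each fit without a vehicle library. Hrct1, at chr4:43726773-43727408 with a fold of 2.21, had 1.55, 1.31 and 1.27 CPM with MS275, against 0.722, 0.41 and 0.429 CPM in vehicle (1.41, SE 0.26, edgeR adjusted p = 0.013). The groups did not overlap, and levels were low in both.

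Depp1, which encodes a regulator of autophagy and is named 8430408G22Rik in the count files, had 4.20, 2.29 and 3.71 CPM with MS275, against 1.86, 2.03 and 1.29 CPM in vehicle (0.96, SE 0.25, edgeR adjusted p = 0.0398). Ehbp1l1, a gene for a protein of vesicle transport, had 56.9, 53.3 and 55.5 CPM with MS275, against 36.7, 38.1 and 37.9 CPM in vehicle (0.56, SE 0.05, edgeR adjusted p = 0.00117). For both genes every MS275 library was above every vehicle library. The separation was wide for Ehbp1l1, whose call held in each of 11 alternative fits. The Ehbp1l1 region, with a fold of 1.43, lay 923 bp from the start. An MS275 region that overlaps the Vehicle list also lay within 1000 bp of an Ehbp1l1 start. The other genes that rose were Zbtb42, a zinc finger factor (0.50), Kcnk5, a background potassium channel gene (0.43), Cisd3, a mitochondrial iron-sulphur protein gene (0.32), and Cd34, a surface glycoprotein of endothelial and blood progenitor cells (0.24).

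Ckmt2, the mitochondrial creatine kinase of striated muscle, carried the highest change near a start and varied most. It had 8.97, 0.437 and 1.71 CPM with MS275, against 0.0875, 0.147 and 0.606 CPM in vehicle (3.82, SE 1.06, edgeR adjusted p = 0.0487), and MS275 replicate 2 lay below vehicle replicate 3. Without MS275 replicate 1 the difference was 1.95 with an adjusted p of 0.0987. The summed level of 9 skeletal muscle markers, all of which passed as higher, was 527.8, 77.3 and 85.6 CPM in the MS275 libraries, against 11.8, 5.77 and 49.0 CPM in vehicle. MS275 replicate 1 was also the highest of all libraries for summed neutrophil, erythroid and adipocyte markers. Those sums in the MS275 libraries were 238, 40.9 and 68.4 CPM, 145.1, 31.7 and 49 CPM, and 16.2, 5.39 and 8.08 CPM. The part of muscle RNA in the libraries in the Ckmt2 result was not tested.

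Of the 6 genes that fell, Fabp7 and Stab1 are described first. Fabp7, which encodes a fatty acid-binding protein of satellite glia, had 105.8, 122.2 and 105.7 CPM with MS275, against 159.7, 164.5 and 161.1 CPM in vehicle. Its region, chr10:57783586-57784378 with a fold of 1.79, lay 545 bp from the start and 225 bp from a Vehicle region. Stab1, a scavenger receptor gene of macrophages and sinusoidal endothelium, had 10.01, 10.9 and 9.82 CPM with MS275, against 14.8, 15.6 and 14.7 CPM in vehicle (-0.55, SE 0.07, edgeR adjusted p = 0.00373). For both genes all MS275 libraries were below all vehicle libraries. Stab1 had 3 MS275-only wide regions and 0 Vehicle-only ones, at chr14:31152174-31153126, chr14:31157380-31158232 and chr14:31168010-31168778, with folds of 1.45, 1.52 and 1.56, and the last covers its start. Beside these, 6 satellite glia markers summed to 3403 to 3791 CPM with MS275 and 3318 to 3489 CPM in vehicle, with 1 higher and 1, Fabp7 itself, lower. The macrophage markers summed to 31.9 to 37.7 CPM with MS275 and 31.2 to 33.4 CPM in vehicle. Of the 5 tested, 0 passed in edgeR, with or without adjustment of p, and 0 passed in DESeq2 or limma voom. Stab1 overlaps Nt5dc2 in the annotation, so reads of 1 of them may count for the other.

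Zbtb39 (-0.58), another zinc finger gene, Sox6 (-0.47), a transcription factor gene, Ncapd3 (-0.33), a condensin subunit gene, and Thsd7a (-0.21) were the other genes near a start that fell. Zbtb39 had 8.21, 7.46 and 7.24 CPM with MS275, against 12.4, 10.3 and 11.7 CPM in vehicle, and its groups did not overlap. Thsd7a was the most abundant of these, with 79.1, 85.1 and 75.1 CPM with MS275, against 98.5, 90.1 and 88.7 CPM in vehicle, with its highest MS275 library close to the lowest vehicle library. Ncapd3 had 9.13, 9.50 and 9.15 CPM with MS275, against 11.6, 11.8 and 11.4 CPM in vehicle, again without overlap.

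Among all nearest genes, wherever the region lay, the named genes are the 12 with the highest change in each direction that passed and averaged at least 1 on the log2 CPM scale, of which 10 higher and 11 lower genes are reported. The plot of RNA levels of named genes shows every library. Groups did not overlap for any of these 21, but they were picked by their change in the same libraries, so this adds no support. Among all genes tested, 15.9% had MS275 libraries all higher and 17.9% all lower. The named genes that rose ran from Ckm (3.45) and Des (2.19) to Lmcd1 (0.71). Ckm, muscle creatine kinase, had 79.1, 10.9 and 12.6 CPM with MS275, against 1.77, 0.819 and 7.44 CPM in vehicle. Des encodes desmin of muscle and mural cells. It had 24.7, 4.75 and 6.78 CPM with MS275, against 1.97, 1.93 and 4.24 CPM in vehicle. In both, MS275 replicate 1 was the highest library, as in the muscle sums given above, and without it Ckm missed the threshold (1.90, edgeR adjusted p = 0.0548) and the change of Des was 1.11 (edgeR adjusted p = 0.0375). The 6 mural cell markers summed to 341.8, 319.2 and 306.4 CPM with MS275, against 251.3, 240.9 and 268.1 CPM in vehicle, with 3 of 6 higher in the test, and their part in the Des result was not tested. Ckm passed in 6 and Des in 6 of 11 alternative fits.

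**Figure D4:**
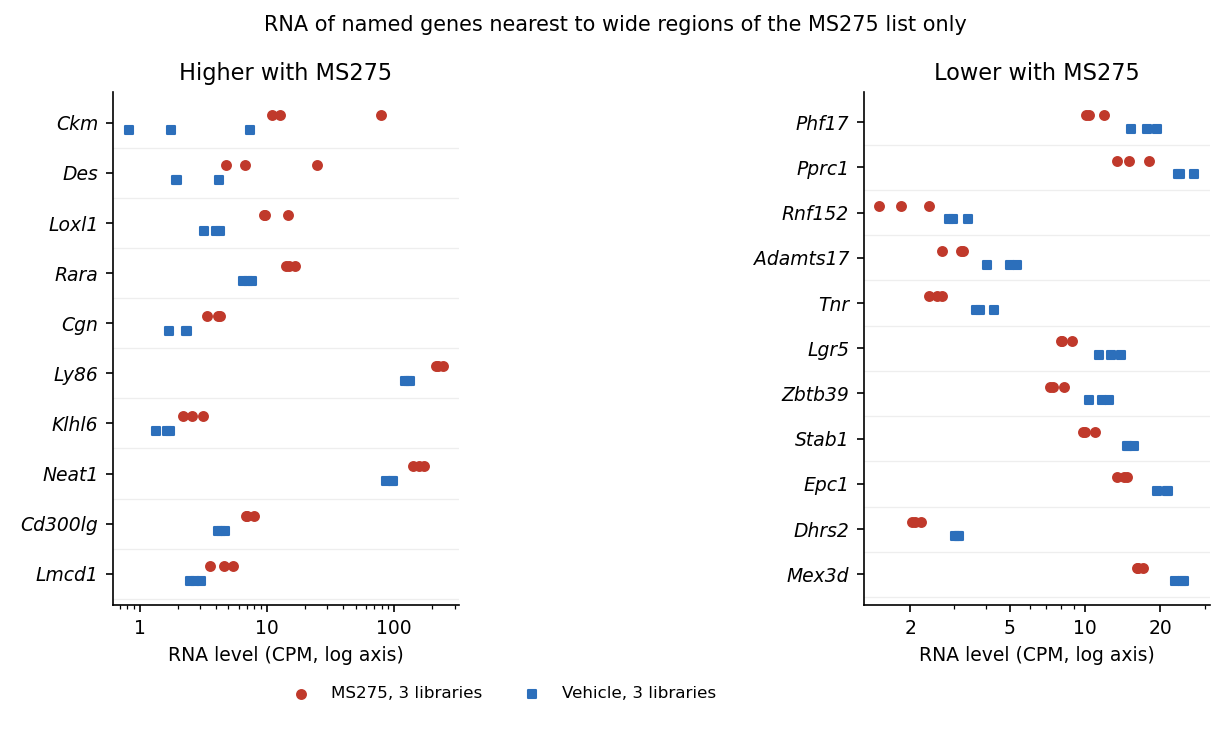
RNA level (CPM, log axis) of 21 named genes nearest to MS275-only wide regions, 10 higher (left) and 11 lower (right), with 1 point per library for 3 MS275 and 3 Vehicle libraries. Points of the groups do not overlap in any row, and Ckm spread most, from 10.9 to 79.1 CPM with MS275 and from 0.819 to 7.44 CPM in vehicle.

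Rara encodes retinoic acid receptor alpha, a ligand-dependent transcription factor. It had 14.2, 16.8 and 14.9 CPM with MS275, against 7.17, 7.68 and 6.46 CPM in vehicle (log2 fold change 1.10, SE 0.10, edgeR adjusted p = 0.00117). The lowest MS275 library was well above the highest vehicle library. It had 2 MS275-only wide regions, chr11:98930190-98931157 and chr11:98932776-98933508, with folds of 1.74 and 1.47. The same gene also had 2 Vehicle-only and 4 shared wide regions.

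Some genes that rose are known from immune cells or vessels. Ly86 encodes MD-1, a partner of a toll-like receptor homologue on B cells and macrophages. It had 214.9, 244.2 and 223.5 CPM with MS275, against 121.2, 129.3 and 134.6 CPM in vehicle (0.83, SE 0.06, edgeR adjusted p = 0.000576). The groups were far apart. Its region at chr13:37388584-37389204 lies inside the gene with a fold of 1.58. Klhl6, an adaptor gene of B cells (0.75), and Cd300lg, a receptor gene of capillary endothelium (0.72), also rose. Beside them, the 6 lymphocyte markers summed to 4.93, 2.24 and 1.68 CPM with MS275, against 2.10, 2.23 and 2.85 CPM in vehicle. The macrophage markers summed to at most 37.7 CPM in any library, below Ly86 alone, and 0 of 5 tested passed in edgeR. Which cells carried the Ly86 RNA was not tested. The 6 endothelial markers summed to 131.3, 110.4 and 119 CPM with MS275, against 90.0, 90.5 and 100.1 CPM in vehicle, with 3 of 6 higher in the test. The part of cell numbers in these changes was not tested.

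Neat1, the lncRNA that builds nuclear paraspeckles, had 171.2, 141.9 and 157 CPM with MS275, against 86.1, 99.1 and 96.6 CPM in vehicle (0.74, SE 0.08, edgeR adjusted p = 0.0019). It had 2 MS275-only wide regions, 0 Vehicle-only ones and 3 shared ones. The first of the 2 (chr19:5824790-5825514) lay 34 bp from a Vehicle region, the second (chr19:5835441-5836045) 1381 bp. Loxl1, a gene for an enzyme that crosslinks elastin, had 14.7, 9.57 and 9.76 CPM with MS275, against 3.22, 4.26 and 3.99 CPM in vehicle (1.57, SE 0.18, edgeR adjusted p = 0.00241). All 3 MS275 libraries were above the vehicle ones, replicate 1 most. The tight junction gene Cgn (0.88) and the LIM domain gene Lmcd1 (0.71) also rose.

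The 11 named genes that fell had smaller changes, from -0.69 to -0.55. Epc1 and Jade1 (listed as Phf17) encode subunits of histone acetyltransferase complexes. Jade1 had 10.1, 11.9 and 10.4 CPM with MS275, against 19.5, 17.6 and 15.2 CPM in vehicle (-0.69, SE 0.10, edgeR adjusted p = 0.00602). Epc1 had 14.3, 13.4 and 14.7 CPM with MS275, against 19.3, 21.2 and 21.5 CPM in vehicle (-0.55, SE 0.07, edgeR adjusted p = 0.00357). Both had every MS275 library below every vehicle library. The Jade1 region (chr3:41574770-41575426, fold 1.60) lies 9890 bp from a start, and the gene held 5 shared wide regions besides. Pprc1, a coactivator of mitochondrial gene expression, fell to 13.5, 17.96 and 14.9 CPM with MS275, against 24.0, 27.2 and 23.4 CPM in vehicle.

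Tnr encodes tenascin-R, a matrix protein of the nervous system. It had 2.38, 2.68 and 2.55 CPM with MS275, against 4.33, 3.67 and 3.81 CPM in vehicle (-0.63, SE 0.13, edgeR adjusted p = 0.0181). The groups were apart at a low level. It had 3 MS275-only wide regions, 4 Vehicle-only and 6 shared ones over 408001 bp. Lgr5, an R-spondin receptor gene, had 8.01, 8.90 and 8.05 CPM with MS275, against 11.3, 14.0 and 12.6 CPM in vehicle. Its region (chr10:115442597-115443347, fold 1.61) lies 6966 bp outside the gene and 129 bp from a Vehicle region. Mex3d, an RNA-binding protein gene (-0.55), Rnf152, a ubiquitin ligase gene (-0.67), Adamts17, a metalloprotease gene (-0.66), and Dhrs2, a dehydrogenase gene (-0.55), also fell, and Zbtb39 and Stab1 were described above.

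Single genes in these sets were not equally stable. Of the 43 genes named here that passed, 8 no longer passed without MS275 replicate 1, 2 without MS275 replicate 2 and 22 without MS275 replicate 3. Without vehicle replicates 1, 2 and 3 the numbers were 26, 29 and 22, and 0 changed direction in any of the 11 alternative fits. The 14 that passed in each of those fits were Loxl1, Rara, Ly86, Neat1, Cd300lg and Ehbp1l1, which rose, and Phf17 (Jade1), Pprc1, Lgr5, Zbtb39, Stab1, Epc1, Mex3d and Fabp7, which fell.

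Regions gathered in long genes. Of the 5187 nearest genes, 4105 had 1 MS275-only wide region, 1082 had 2 or more and 65 had 5 or more. Median gene length was 68469 bp for tested nearest genes, 18754 bp for tested genes nearest to none, and 557194 bp for genes with 5 or more. Dpp6, an auxiliary subunit gene of potassium channels, and Rbfox1, a neuronal splicing factor gene, had 15 each. The synaptic complement regulator Csmd1 and the ADP-ribose hydrolase gene Macrod2 had 12 each, and Cacna2d3, a calcium channel subunit gene, had 11.

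**Figure D5:**
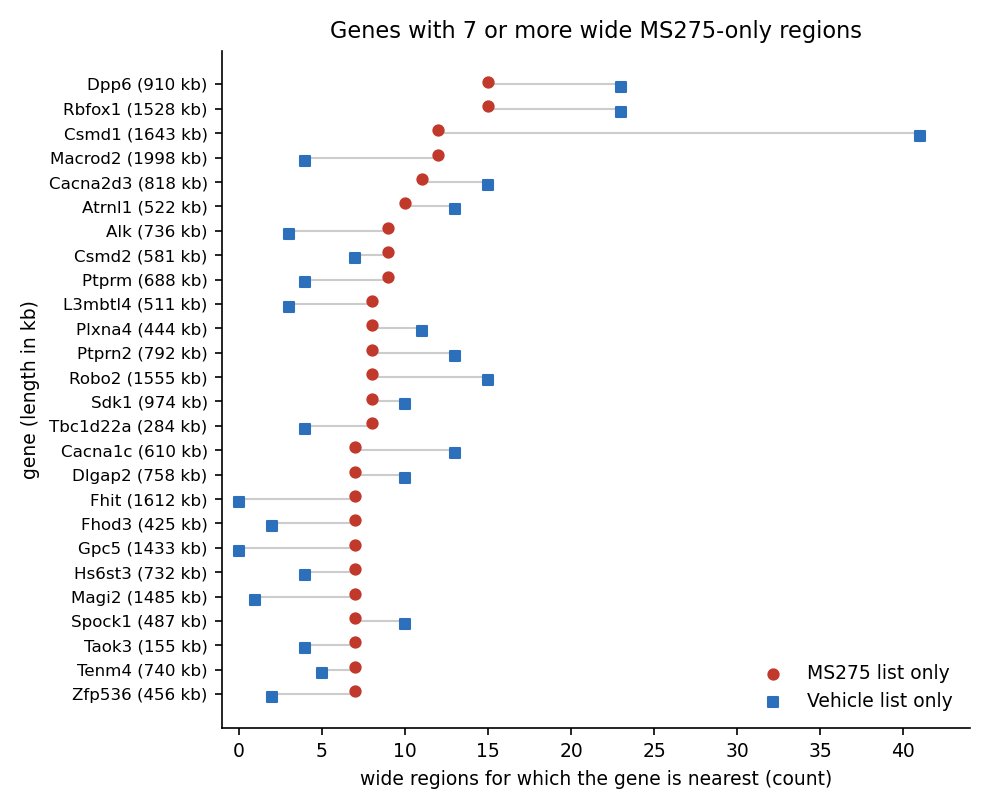
Number of wide regions for which a gene is nearest, for the 26 tested genes with 7 or more MS275-only wide regions, with gene length in kb beside each name; circles are MS275-only and squares Vehicle-only regions. Csmd1 had 12 and 41, Macrod2 had 12 and 4, and Fhit and Gpc5 had 7 and 0.

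These long genes also held regions of the Vehicle list. Over the 64 tested genes with 5 or more, MS275-only wide regions summed to 433, Vehicle-only wide regions to 471 and shared ones to 861. MS275-only regions were the more numerous in 32 of the genes, the fewer in 28 and equal in 4. The genes were picked for a high MS275-only count, so no balance between the lists can be read from them. Over all autosomes, Vehicle-only wide regions numbered 12165 and MS275-only ones 6944. Csmd1 had 12 MS275-only against 41 Vehicle-only regions. Macrod2 leaned the other way with 12 against 4, Alk, a receptor tyrosine kinase gene, with 9 against 3, and the common fragile site gene Fhit and the glypican gene Gpc5 with 7 against 0 each. The 7 Fhit regions had folds from 1.65 to 2.06, and the one at chr14:10526751-10527370 lay 66156 bp from the nearest Vehicle region. These counts have no replicates and are given as values.

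RNA was then compared for the genes with many regions. Of the 64 tested genes with 5 or more, 1 rose (1.56%) and 3 fell (4.69%), with a median log2 fold change of -0.06. The shares over all genes were 5.10% and 5.89%. These are few genes, and the difference in shares was not tested. Tbc1d22a, which encodes a Rab GTPase-activating protein and had 8 regions, was the one that rose, with 74.5, 69.3 and 71.9 CPM with MS275, against 61.4, 61.2 and 59.1 CPM in vehicle (0.25, SE 0.04, edgeR adjusted p = 0.0107). Magi2, a synaptic scaffold gene with 7 regions, had 17.6, 17.3 and 17.5 CPM with MS275, against 20.5, 20.5 and 20.3 CPM in vehicle (-0.23, SE 0.06, edgeR adjusted p = 0.0381). Taok3, a kinase gene with 7 regions, had 41.0, 42.6 and 42.9 CPM with MS275, against 48.3, 49.0 and 49.5 CPM in vehicle (-0.22, SE 0.04, edgeR adjusted p = 0.0168). In all of these the groups were apart by small amounts; Cacna1c, the last, is given with the ion channels.

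Macrod2 RNA did not pass, with 63.6, 65.8 and 65.0 CPM with MS275, against 70.9, 71.5 and 70.2 CPM in vehicle (-0.13, edgeR adjusted p = 0.0612), although its groups did not overlap. Dpp6 had 427, 455.3 and 466.1 CPM with MS275, against 416.9, 427.7 and 435.1 CPM in vehicle (0.08, edgeR adjusted p = 0.287). Rbfox1 had 249.1, 245.1 and 259.5 CPM with MS275, against 242.2, 247.1 and 250.6 CPM in vehicle (0.03, edgeR adjusted p = 0.705). The groups overlapped for both.

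By function, many of the axon guidance and adhesion genes listed were nearest to a region. Of 59 listed, 36 were nearest to at least 1 MS275-only wide region, 93 regions in all. Over all tested genes with a RefSeq match, this held for 2939 of 15950 (18.4%). For Vehicle-only wide regions, the larger class with 4716 tested genes nearest, it was 36 genes with 132 regions. The 36 genes nearest to MS275-only regions ran from 26067 bp (Plxnb1) to 1612235 bp (Nrxn3). The median was 18754 bp for tested genes nearest to none. The part of gene length in these shares was not tested. The receptors Robo1 and Robo2 had 6 and 8 regions, their ligands Slit1, Slit2 and Slit3 had 3, 1 and 4, and the semaphorin receptor Plxna4 had 8. The cadherin Cdh4 had 6, the adhesion molecule Dscam and the ephrin receptor Ephb1 had 5 each. Robo2 regions ranged in fold from 1.44 to 1.96, and the one with 1.96 was chr16:73833519-73834227. Of the 36 genes 0 passed in edgeR, with a median log2 fold change of -0.01; 5 had a p under 0.05 before adjustment, and 0 passed in DESeq2 or limma voom. Over all genes, 5.10% were called higher and 5.89% lower, and 28.4% had a p under 0.05 before adjustment. Robo2 had 184.4, 184.9 and 180.9 CPM with MS275, against 185.4, 177.1 and 183.3 CPM in vehicle, and Plxna4 had 67.5, 95.2 and 72.0 CPM with MS275, against 90.2, 93.2 and 88.8 CPM in vehicle. For both the groups overlapped.

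Neuronal ion channel genes gave a similar picture. Of 56 listed, 36 were nearest to 87 MS275-only wide regions, beside 18.4% of all tested genes. For the larger Vehicle-only class, 35 were nearest to 135 regions. Here too the part of gene length was not tested. The 36 genes included the sodium channels of pain-sensing neurons, Scn9a, Scn10a and Scn11a, with 2, 3 and 3 regions. The mechanosensor Piezo2 had 6 and the heat sensor Trpv1 had 1. One Scn9a region (chr2:66498785-66499479) had a fold of 2.06, and the Trpv1 region (chr11:73252520-73253256, fold 1.82) lay 25 bp from a Vehicle region. Scn10a had 719, 899.9 and 821.7 CPM with MS275, against 897.8, 866.6 and 861.1 CPM in vehicle, with overlapping groups (edgeR adjusted p = 0.361). Scn11a had 434.8, 455.2 and 438.4 CPM with MS275, against 419.8, 403.7 and 424 CPM in vehicle, without overlap but short of the threshold (edgeR adjusted p = 0.164).

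Among the 36 channel genes 1 rose and 2 fell, beside 5.10% and 5.89% over all genes. Kcna4, a fast potassium channel gene with 2 regions more than 50000 bp away, had 24.9, 24.4 and 26.2 CPM with MS275, against 21.3, 20.0 and 21.4 CPM in vehicle (0.27, SE 0.06, edgeR adjusted p = 0.0265). The calcium channel gene Cacna1b had 3 regions and 112, 133.5 and 115.8 CPM with MS275, against 147.1, 146.8 and 142.7 CPM in vehicle (-0.27, SE 0.06, edgeR adjusted p = 0.0267). Cacna1c had 7 regions and 25.6, 28.6 and 24.2 CPM with MS275, against 31.3, 32.1 and 30.1 CPM in vehicle (-0.25, SE 0.07, edgeR adjusted p = 0.0466). In these 3 genes the groups did not overlap, and Cacna1c no longer passed in 5 of 6 fits that left out a library.

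The histone deacetylase, sirtuin and acetyltransferase genes listed were nearest about as often as genes in general. Of 27 listed, 5 were nearest to 8 MS275-only wide regions, beside 18.4% of all tested genes. They were the deacetylases Hdac4 (3) and Hdac9 (1), the sirtuin Sirt4 (1) and the acetyltransferases Kat2b (1) and Kat6b (2). The region chr15:97832297-97832932 lay 530 bp from a start of the deacetylase gene Hdac7 but was given the lncRNA gene Gm33636. Hdac7 RNA did not pass (0.25, edgeR adjusted p = 0.0916). For Vehicle-only wide regions, to which 4716 tested genes were nearest against 2939, the number was 9 genes with 18 regions. Sirt4, a mitochondrial sirtuin, had 7.48, 7.94 and 8.78 CPM with MS275, against 5.93, 6.03 and 5.80 CPM in vehicle (0.44, SE 0.09, edgeR adjusted p = 0.0201). Kat6b had 11.5, 12.5 and 11.2 CPM with MS275, against 16.47, 15.0 and 15.4 CPM in vehicle (-0.41, SE 0.08, edgeR adjusted p = 0.0123). Both were separated between the groups. One Kat6b region (chr14:21654255-21654939) had a fold of 2.16.

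Of the interferon and antigen presentation genes, 13 of 26 tested rose in these libraries, beside 5.10% over all genes. Of 27 listed, 2 were nearest to an MS275-only wide region, H2-Eb1 and its transactivator gene Ciita, beside 18.4% of all tested genes. For Vehicle-only wide regions, the larger class, the number was 10 genes with 16 regions. Over all tested genes, 4716 were nearest to a Vehicle-only wide region and 2939 to an MS275-only one. H2-Eb1, a class II antigen presentation gene, had 32.3, 23.6 and 27.5 CPM with MS275, against 18.7, 19.6 and 21.0 CPM in vehicle (0.49, SE 0.11, edgeR adjusted p = 0.0213), with no overlap. Its region, chr17:34298184-34299333, lies 6533 bp outside the gene. Ciita had 1.99, 0.874 and 1.25 CPM with MS275, against 0.941, 1.08 and 0.782 CPM in vehicle, with overlap (edgeR adjusted p = 0.279).

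Among 28 regeneration-associated genes, 2 were nearest to an MS275-only wide region, beside 18.4% of all tested genes. For the larger Vehicle-only class the number was 5 genes with 5 regions. Stat3 had 1 MS275-only region and Klf7, a transcription factor that promotes axon growth, had 2. Klf7 had 482.4, 508.8 and 447.4 CPM with MS275, against 426.7, 433.9 and 416.1 CPM in vehicle (0.17, edgeR adjusted p = 0.056), without overlap and short of the threshold. The lists of cell type markers held 6 to 10 genes each, too few to set against the 18.4%. Of 10 sensory neuron markers, Isl1 and Tubb3 had 1 region each and Scn10a had 3. The Isl1 region, chr13:116304786-116305709, lay in the gene of this sensory neuron transcription factor 3979 bp from a start, and its fold of 2.34 was above the 95th percentile of the class, 2.09. Isl1 RNA was 92.9, 112.6 and 104.7 CPM with MS275, against 87.5, 91.3 and 87.8 CPM in vehicle, again without overlap but not past the threshold (0.22, edgeR adjusted p = 0.0599). Endothelial, macrophage, neutrophil, lymphocyte and erythroid marker lists had 0 genes nearest to an MS275-only wide region, against 3, 1, 0, 0 and 0 genes for Vehicle-only ones. Vehicle-only wide regions were also the more numerous, with 12165 against 6944.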

How the data were processed

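RNA was measured in 6 libraries and chromatin in 6 ATAC samples. The RNA files hold raw read counts per gene, deposited by the authors; the counting tool and strand option are not stated, so reads of overlapping or antisense genes may be shared in unknown ways. Rows that name no gene (18.89% to 20.56% of reads) were left out. The ATAC files are narrowPeak lists of combined replicates; the deposited columns hold a score, a fold enrichment ratio, a −log10 p-value, a −log10 q-value and a summit offset, from a peak caller not named in the sources used here. Depth of the ATAC samples is unknown; RNA depth, 34992533 to 60370523 assigned reads, limits the precision of low genes. The submitters' processing notes name build mm10 and FastQC 0.10.1, R 3.5.0, STAR 2.7.0, limma 3.38.3 and edgeR 3.24.3, without roles.

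Entries were merged and compared with bedtools 2.31.1 and Python 3.11.15 (pandas 2.3.3), and given the nearest gene of the RefSeq GRCm38.p6 table; transcription starts came from its promoter table, which leaves out chromosome 18. Of 16819 tested genes, 15950 matched RefSeq symbols, 1017 of them by synonym. Counts were fitted in edgeR 4.0.16 (R 4.3.3; TMM, filterByExpr, quasi-likelihood test, 2-sided, Benjamini-Hochberg over all genes), with treatment as the only term, and the fit was tested on simulated data. CPM use normalised library sizes. Alternatives covered RLE size factors, no filter, DESeq2 1.42.0, limma voom 3.58.1, a replicate block, each library left out, other thresholds and other rules for regions and nearest genes; 2 were added after seeing the data, the nearest protein-coding gene and the repeat of the fits for genes near a start.

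The regions and gene lists were chosen with earlier results of these data known. Named regions were the 10 widest, the 10 of highest fold, and those inside or within 1000 bp of genes that passed; named genes passed at adjusted p under 0.05 with a mean log2 CPM of at least 1, the 12 highest changes per direction without provisional symbols, besides listed genes and genes with 2 or more regions. More regions and genes meet these rules than are printed, and a few items are not reported here. Sequences were printed for none of chromosome 18. Same-numbered MS275 and vehicle RNA libraries did not deviate together, so no pairing was used.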

Additional observations from a re-analysis of the deposited data

How the results depend on the processing

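The number of MS275-only wide regions, 6944, depended on the rule. It was 2187 when both lists were limited to a −log10 q of at least 5, 11143 when sharing required a share of 0.5 of a region to be covered, 13553 at a width of at least 500 bp and 1736 at 800 bp. It stayed within 1.5 times when a Vehicle region within 500 bp counted as shared (5608), at equal list sizes (7419) and when entries within 100 bp were merged (7186). RNA calls depended on the libraries. Leaving out 1 library in turn gave 127 to 1388 higher and 134 to 1375 lower of all genes, and 25 to 226 higher and 16 to 267 lower of nearest genes, the fewest without vehicle replicate 2 and the most without MS275 replicate 2. At adjusted p under 0.01, 165 and 185 of all genes and 32 and 21 of nearest genes passed as higher and lower. With both lists limited to a −log10 q of at least 5, a region can count as MS275-only although it overlaps a weaker Vehicle entry. Only 365 of the 6944 reached this limit themselves. Nearest genes of the 2187 gave 95 higher and 62 lower of 1288 (7.38% and 4.81%). Those of the 365 gave 13 higher and 12 lower of 222 (5.86% and 5.41%). Every gene within 50000 bp gave 411 and 348 of 6781 (6.06% and 5.13%). RLE size factors, no filter, DESeq2, limma voom, a 10000 bp limit, the 500 bp rule and the nearest protein-coding gene kept both counts of nearest genes within 1.5 times. With the replicate block 194 nearest genes were higher and 168 lower, and 981 and 1107 of all genes. The same-numbered libraries had correlations of deviations of 0.019, 0.111 and -0.061, so the numbers were not taken as pairs. Mmaa, near 0 at -0.001, moved between -0.043 (without vehicle replicate 1) and 0.075, and changed sign with RLE size factors (0.004), without MS275 replicate 3 (0.075), without vehicle replicate 2 (0.003), without vehicle replicate 3 (0.038), with DESeq2 (0.006) and with limma voom (0.011), and passed in none of these. The causes were not tested. Because each treatment has 1 peak list of unknown depth, no error can be put on any count of regions.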

Other observations

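On the sex chromosomes, which the rule for autosomes leaves out, 4 of 562 merged MS275 regions on X were wide and overlapped no Vehicle region, and 0 of 21 on Y. MS275 regions under 600 bp with no Vehicle overlap numbered 69312. Of these, 449 of 66873 contained a transcription start. Among the 150 tested genes at those starts, 21 rose (14.0%) and 2 fell (1.33%) in edgeR's quasi-likelihood test with Benjamini-Hochberg adjustment. The shares over all genes tested were 5.10% and 5.89%. With a start within 1000 bp of such a region, 62 rose and 33 fell of 845 genes (7.34% and 3.91%). Vehicle-only regions under 600 bp were not set beside these, and the counts were not repeated without single libraries.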
